A study of Mus musculus with 6 samples.

Results

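The 52 genes described here are nuclear genes that encode subunits of the respiratory chain and the ATP synthase, together with the electron carrier cytochrome c. They were chosen by symbol from a list of such subunits, and all 52 were found among the 47643 genes of the deposited table. Sorted by the complex their proteins sit in, 26 belong to complex I, 4 to complex II, 6 to complex III, 11 to complex IV and 4 to complex V, and 1 encodes cytochrome c. Ndufa4 carries a complex I name but was placed with complex IV, where its protein is known to reside. The study sequenced RNA from whole liver tumors of LAP-tTA, tetO-MYC double transgenic mice on the FVB/N strain. In this model a liver promoter drives a transactivator that turns on a MYC transgene when doxycycline is absent, so every library, controls included, comes from MYC-driven tissue. Doxycycline was supplied at 100 mg/L up to 4 weeks of age and then withdrawn, and MYC was on for 8 weeks before dosing. Tumors then came from 3 samples dosed for 2 weeks at 50 mg/kg/day with GSK3326595, which blocks PRMT5, an enzyme that methylates arginines, and from 3 samples given vehicle. Replicates carry numbers, but the labels do not say that they are different animals, so every p-value here rests on the spread of these samples, which may be technical.

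Oxidative phosphorylation passes electrons from NADH through complex I, or from succinate through complex II, to complex III, cytochrome c and complex IV, where oxygen is reduced. Complexes I, III and IV pump protons across the inner mitochondrial membrane, and complex V, the ATP synthase, uses the gradient to make ATP. Most subunits are encoded in the nucleus and imported, a small catalytic core is encoded by mitochondrial DNA, and hepatocytes are rich in mitochondria.

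The libraries held between 25814339 and 33621083 expected counts, and each of the 52 genes had at least 470 counts in every library. GSK3326595 replicate 2 stood apart at 103.1 on the first principal component (38.1% of variance), where the remaining 5 libraries spanned -50.2 to 9.37. Prmt5, whose protein the drug inhibits, averaged 92.4 ± 39.4 CPM (counts scaled to library size) in GSK3326595 tumors and 67.9 ± 18.05 CPM in vehicle tumors (SD, n = 3 each). Its log2 difference was 0.44 with an SE of 0.37 (edgeR adjusted p = 0.753), and the SE follows the sign ± for all log2 differences. Prmt5 mRNA does not report the activity of the inhibited enzyme. Mouse Myc averaged 2.87 ± 0.913 CPM in GSK3326595 tumors and 5.11 ± 3.33 CPM in vehicle tumors (log2 difference -0.83 ± 0.52, edgeR adjusted p = 0.665), and the MYC transgene was not analysed here. All 10 hepatocyte markers, among them Alb and Hnf4a, had counts in all 6 libraries.

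Transcripts of 51 of the 52 genes were lower in GSK3326595 tumors, by a median log2 difference of -0.31 and a range from -0.63 for Atp5o to 0.03 for Cycs. Over all 17012 genes tested the median was 0.03, and 46.9% of genes had a negative log2 difference. None of the 52 passed the adjusted threshold of 0.05 in edgeR's quasi-likelihood test (smallest adjusted p = 0.46), in limma-voom or in DESeq2. No gene of the table did in edgeR either, a background of 0%, while DESeq2 called 0.588% of genes lower and 1.09% higher. At an unadjusted edgeR p under 0.05, 10 of the 52 were lower, against 3.81% of all genes, and none was higher, against 5.45%. DESeq2 and limma-voom each put 11 of the 52 under that unadjusted threshold, all lower, against 4.26% and 3.99% of all genes. For 21 of the 52, every GSK3326595 library lay below every vehicle library, against 7.66% of all genes, and for none did every GSK3326595 library lie above, against 6.72%. The libraries come from whole tumor tissue, so fewer cells of a type and less RNA per cell cannot be told apart.

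**Figure D1:**
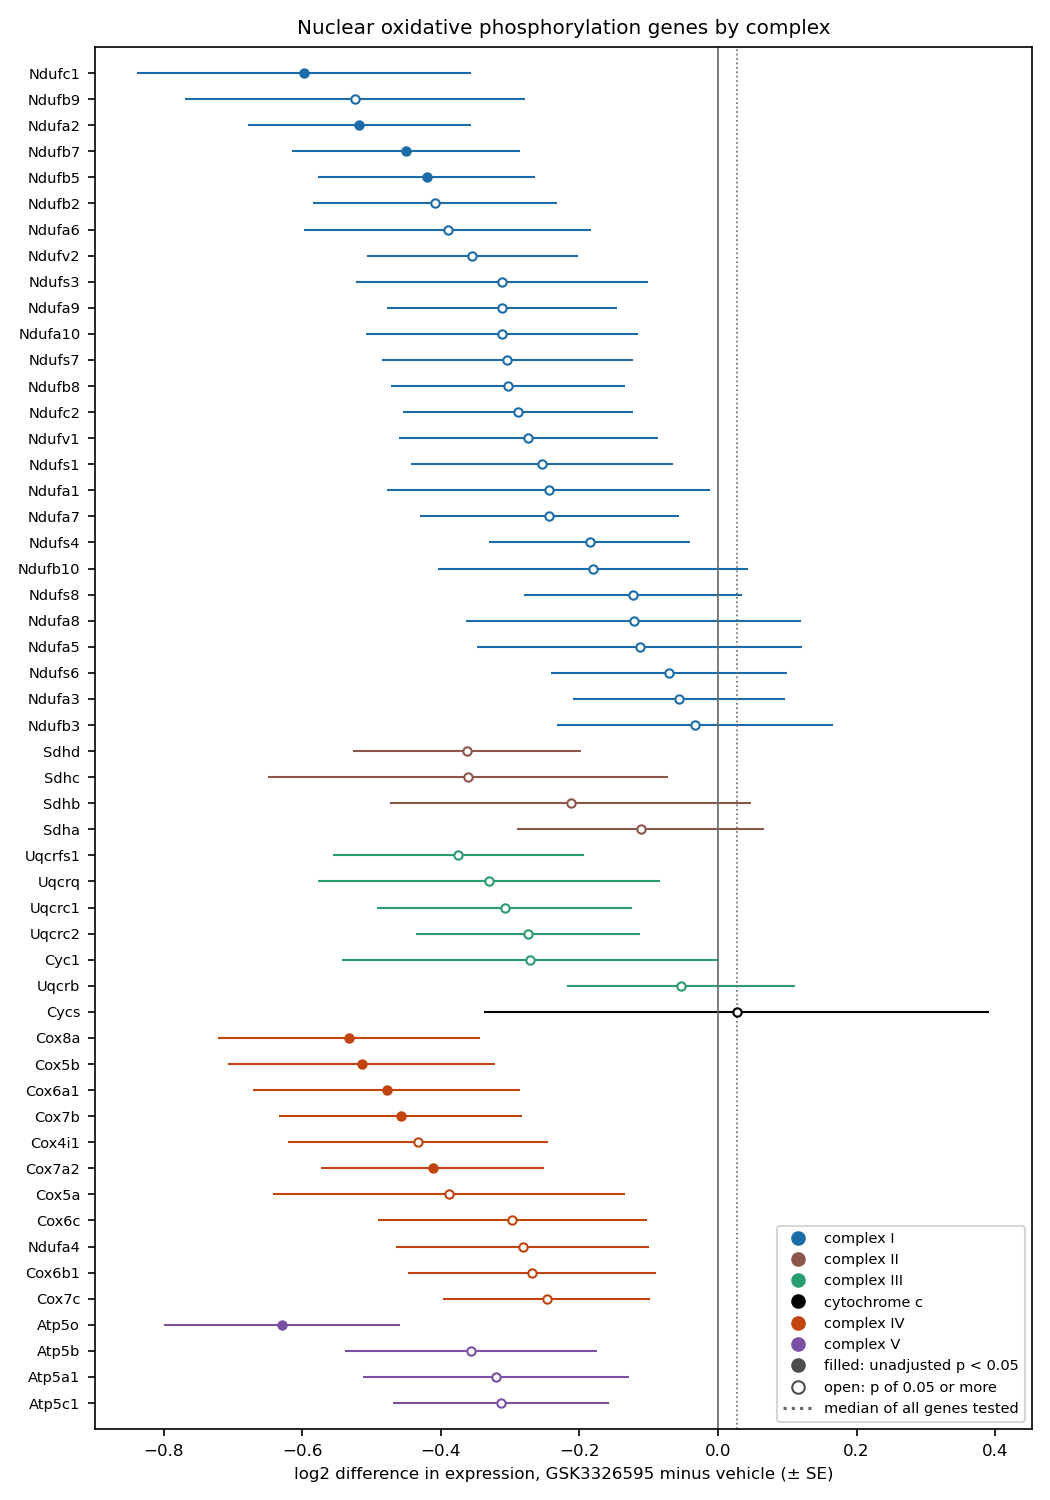
Log2 difference, GSK3326595 minus vehicle, of each of the 52 genes, ordered by complex, with bars of 1 SE from edgeR (3 libraries per group). All points but that of Cycs lie to the left of 0, and the lowest is Atp5o at -0.63.

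These counts turned on single libraries. The 10 genes under the unadjusted threshold became 18 without GSK3326595 replicate 2, where 4.46% of all genes were lower. They became 4 without GSK3326595 replicate 1 (against 5.49% of all genes) and 3 without GSK3326595 replicate 3 (against 3.72%). Without vehicle replicate 1 or without vehicle replicate 2 only 1 was left, against 1.42% and 1.37% of all genes. The 21 genes with groups apart became 44 without GSK3326595 replicate 2 and 34 without vehicle replicate 3. With a library left out, the groups of any gene lie apart more readily, and the share over all genes was not counted for these fits. Over the 6 fits that each left out 1 library, between 46 and 52 of the genes had a negative log2 difference.

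Added together, the 52 genes had 7790, 9719 and 8051 CPM in the GSK3326595 libraries, against 11496, 10800 and 9743 CPM in the vehicle libraries. The summed level averaged 8520 ± 1046 CPM in GSK3326595 tumors and 10680 ± 882 CPM in vehicle tumors (SD, n = 3 each), or 79.8% of the vehicle level. On this sum, to which the 4 abundant genes of complex V added 2992 to 3541 CPM in GSK3326595 libraries and 3814 to 4421 CPM in vehicle libraries, the groups did not overlap, though GSK3326595 replicate 2 and vehicle replicate 3 nearly met. For complex IV the summed level in GSK3326595 tumors was 76.3% of that in vehicle tumors, for complex V 78.0%, for complex I 81.3%, for complex III 82.4% and for complex II 83.9%. Cytochrome c stood at 102%. GSK3326595 replicate 2 exceeded vehicle replicate 3 in the sums of complex I (2099 against 2010 CPM) and complex III (1141 against 1067 CPM). Those groups therefore overlapped, as did those of cytochrome c, while the sums of complexes II, IV and V did not overlap. The same 2 libraries nearly met for complex II (847 against 851 CPM) and complex IV (1828 against 1842 CPM). No test of a difference between complexes was made.

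Most of the 52 genes varied together across the libraries. Relative to the vehicle mean, the mean log2 level of the 52 genes was -0.45, -0.08 and -0.42 in GSK3326595 replicates 1, 2 and 3 and 0.11, 0.04 and -0.15 in vehicle replicates 1, 2 and 3. On this measure, which weights the genes equally, GSK3326595 replicate 2 lay above vehicle replicate 3 and the groups overlapped. GSK3326595 replicate 2 was the highest of its group for 46 genes, and vehicle replicate 3 was the lowest of its group for 45. A GSK3326595 library was the lowest of all 6 for each of the 52 genes, replicate 1 for 28, replicate 3 for 23 and replicate 2 for 1, where it was for 63.8% of all genes. The highest of all 6 was a vehicle library for 41 genes and GSK3326595 replicate 2 for 10. Genes that share a library share its depth and tissue, so they are not independent observations of the treatment. The SD of log2 CPM within groups had a median of 0.19 over the 52 genes, from 0.08 for Cox7c to 0.56 for Cycs, and of 0.39 over all genes tested. All genes tested include genes with far fewer counts than the 52, and the SD was not compared at a matched level.

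**Figure D2:**
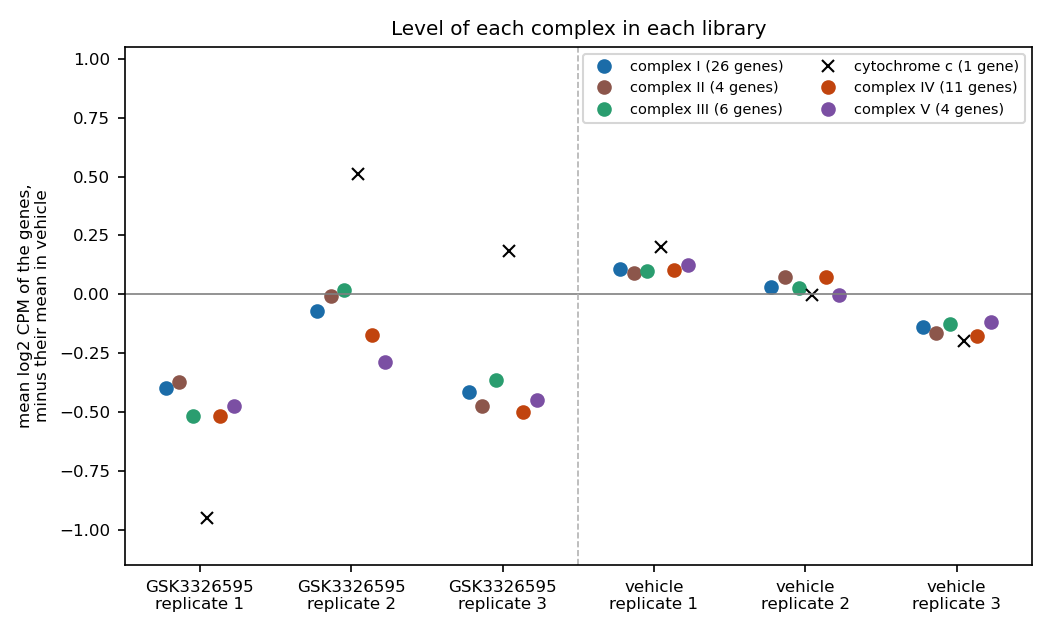
Mean log2 CPM of the genes of each complex relative to the vehicle mean, with 1 point per library and GSK3326595 left of vehicle. GSK3326595 replicates 1 and 3 lie below all vehicle libraries for complexes I to V, and GSK3326595 replicate 2 lies within the vehicle range for complexes I (-0.07), II (-0.01), III (0.02) and, just above vehicle replicate 3, IV (-0.17), and below it for complex V (-0.29).

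Promoters of the genes are shown because the genes shared a direction and because NRF1 and ETS-family factors such as GABP are known regulators of respiratory genes. A window of 250 bases before to 50 after the annotated start was found for 41 of the 52 genes in RefSeq on GRCm38.p6. The 4 printed belong to the named genes of smallest p whose windows could be shown, and capitals mark matches on either strand to NRF1 (GCGCA, any base, then GCGC), ETS (CCGGAAG) or YY1 (AAGATGGCG).
Atp5o, minus strand of chr16:91931581-91931880
Atp5o: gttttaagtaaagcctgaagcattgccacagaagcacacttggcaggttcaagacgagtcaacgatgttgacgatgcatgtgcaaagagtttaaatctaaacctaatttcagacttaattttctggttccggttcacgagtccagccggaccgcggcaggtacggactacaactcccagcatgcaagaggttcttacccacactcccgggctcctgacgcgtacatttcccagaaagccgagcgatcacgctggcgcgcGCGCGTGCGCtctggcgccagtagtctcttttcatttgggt
Cox8a, minus strand of chr19:7217567-7217866
Cox8a: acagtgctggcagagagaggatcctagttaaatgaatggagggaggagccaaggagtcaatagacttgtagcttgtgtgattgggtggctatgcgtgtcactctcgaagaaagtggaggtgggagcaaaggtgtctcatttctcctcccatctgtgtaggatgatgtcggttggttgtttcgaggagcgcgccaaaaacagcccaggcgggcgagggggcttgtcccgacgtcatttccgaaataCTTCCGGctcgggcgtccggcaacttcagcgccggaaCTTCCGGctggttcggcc
Ndufb7, plus strand of chr8:83566508-83566807
Ndufb7: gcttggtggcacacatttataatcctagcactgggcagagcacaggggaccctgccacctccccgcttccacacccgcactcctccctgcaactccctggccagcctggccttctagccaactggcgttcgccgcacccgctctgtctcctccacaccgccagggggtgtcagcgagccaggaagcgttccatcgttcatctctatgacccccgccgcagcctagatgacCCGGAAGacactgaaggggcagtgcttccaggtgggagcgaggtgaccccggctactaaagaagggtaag
Cox5b, plus strand of chr1:36691237-36691536
Cox5b: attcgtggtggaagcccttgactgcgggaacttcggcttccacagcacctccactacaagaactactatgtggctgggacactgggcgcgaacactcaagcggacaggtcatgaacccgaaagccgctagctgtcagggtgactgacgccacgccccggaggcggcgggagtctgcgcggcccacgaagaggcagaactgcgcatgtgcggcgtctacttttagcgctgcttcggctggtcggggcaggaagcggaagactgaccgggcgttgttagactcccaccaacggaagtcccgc
Counted from the start of transcription, the NRF1 match of Atp5o covers bases 10 to 19, the ETS matches of Cox8a begin at -5 and 33, and that of Ndufb7 begins at -20. The Cox5b window held no match to these 3 motifs.

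Over the 41 windows, the NRF1 motif was found in 9, or 22% of them, against 6.6% of the windows of 17492 coding genes. The ETS motif was in 8 (19.5%, against 11.9%) and the YY1 motif in 5 (12.2%, against 1.94%). The estrogen-related receptor motif TCAAGGTCA was in 1, that of Sdhd (2.44%, against 0.332%), and the MYC-type E-box CACGTG in 2, those of Ndufa7 and Ndufv1 (4.88%, against 7.9%). The sequence CCAAT was in 15 (36.6%, against 39%). The median GC content was 58.3% in these windows and 56.3% in those of coding genes, and both strands were searched throughout. A match is a run of letters and not a shown binding site. Cox8a, with 2 ETS matches, and Cox5b, with none of the 3 motifs, had log2 differences of -0.53 and -0.51. Both were printed for their small p, so a large difference was part of that choice. Whether differences go with motifs was not tested.

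Complex I takes electrons from NADH, and all 26 of its genes were lower in GSK3326595 tumors, by a median log2 difference of -0.30 and a range from -0.60 for Ndufc1 to -0.03 for Ndufb3. In 8 of the 26 every GSK3326595 library lay below every vehicle library, against 7.66% of all genes. An unadjusted edgeR p under 0.05 was reached by 4, against 3.81% of all genes lower. Those 4, Ndufa2, Ndufb7, Ndufb5 and Ndufc1, all encode accessory subunits, which surround the catalytic core and are needed for its assembly or stability. Among the 6 genes of core subunits, which carry the flavin or the iron-sulfur clusters or line the path to ubiquinone, the log2 differences ran from -0.35 for Ndufv2 to -0.12 for Ndufs8.

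Ndufa2 encodes a small accessory subunit of the matrix arm with a thioredoxin-like fold. It had 38.6, 40.6 and 31.7 CPM in the GSK3326595 libraries, against 53.7, 54.0 and 51.1 CPM in the vehicle libraries. The groups lay apart, with GSK3326595 replicate 3 lowest. The means were 37.0 ± 4.62 CPM in GSK3326595 tumors and 52.9 ± 1.56 CPM in vehicle tumors, a log2 difference of -0.52 ± 0.16 (edgeR adjusted p = 0.504). Its exons share positions with Tmco6 on the opposite strand. The library kit keeps strand, but the sources used here do not say whether counting used it, so reads of such pairs cannot be told apart. In all, 15 of the 52 genes share exonic positions with a gene of the opposite strand.

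Ndufb7, a membrane-arm subunit facing the intermembrane space, had 53.6, 52.0 and 45.0 CPM in the GSK3326595 libraries, against 75.4, 70.7 and 59.8 CPM in the vehicle libraries. Again no GSK3326595 library reached a vehicle library, and the log2 difference was -0.45 ± 0.16 (edgeR adjusted p = 0.522). Ndufb5, another subunit of the membrane arm, had 68.7, 78.0 and 70.4 CPM in the GSK3326595 libraries, against 104.5, 101.0 and 85.1 CPM in the vehicle libraries. Its groups lay apart too (log2 difference -0.42 ± 0.16, edgeR adjusted p = 0.522), and it shares exonic positions with Mrpl47. Ndufc1, a small membrane subunit, had 20.2, 26.9 and 17.9 CPM in the GSK3326595 libraries, against 34.7, 38.0 and 25.7 CPM in the vehicle libraries. Here GSK3326595 replicate 2 passed vehicle replicate 3, so the groups overlapped, and the difference was the largest of complex I at -0.60 ± 0.24 (edgeR adjusted p = 0.533).

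The core subunit gene Ndufv2, which encodes an iron-sulfur protein next to the flavin site, had 120.7, 133.9 and 142.1 CPM in the GSK3326595 libraries, against 179.8, 162.2 and 165.4 CPM in the vehicle libraries. The groups lay apart, and the treated order differed from that of most genes, with replicate 3 highest (log2 difference -0.35 ± 0.15, edgeR adjusted p = 0.548). Ndufb2, of the membrane arm, had 33.4, 44.6 and 36.9 CPM in the GSK3326595 libraries, against 55.7, 49.7 and 47.1 CPM in the vehicle libraries. Its groups lay apart by a small margin (log2 difference -0.41 ± 0.18, edgeR adjusted p = 0.548), and its exons share positions with Braf on the opposite strand. At the other end of complex I, 6 genes had small differences: Ndufb3 lay at -0.03, Ndufa3 at -0.06, Ndufs6 at -0.07, Ndufa5 at -0.11, and Ndufa8 and Ndufs8 at -0.12. The groups overlapped in all 6.

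Complex II, succinate dehydrogenase, links the citric acid cycle to the chain and is wholly nuclear-encoded. Its 4 genes had a median log2 difference of -0.29, and none had an unadjusted edgeR p under 0.05. Sdha encodes the flavin subunit, and its level overlapped between groups, with 251.6, 319.6 and 245.6 CPM in the GSK3326595 libraries, against 316.6, 291.5 and 274.4 CPM in the vehicle libraries (log2 difference -0.11 ± 0.18, edgeR adjusted p = 0.905). GSK3326595 replicate 2 was the highest of all 6. The iron-sulfur subunit gene Sdhb had 107.9, 168.7 and 97.8 CPM in the GSK3326595 libraries, against 157.1, 160.5 and 116.4 CPM in the vehicle libraries, and overlapped likewise (-0.21 ± 0.26, edgeR adjusted p = 0.853). Sdhc, of the membrane anchor, had 54.4, 90.3 and 45.1 CPM in the GSK3326595 libraries, against 84.6, 91.6 and 67.6 CPM in the vehicle libraries (-0.36 ± 0.29, edgeR adjusted p = 0.742). Its GSK3326595 replicate 2 lay among the vehicle libraries.

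Sdhd, which encodes the other anchor subunit, departed from this order. It had 320.3, 268.5 and 329.4 CPM in the GSK3326595 libraries, against 408.6, 379.1 and 392.6 CPM in the vehicle libraries. The groups lay apart and GSK3326595 replicate 2 was the lowest library, the only case among the 52 genes (log2 difference -0.36 ± 0.16, edgeR adjusted p = 0.555).

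Complex III passes electrons from ubiquinol to cytochrome c. All 6 of its genes had negative log2 differences, from -0.37 for Uqcrfs1 to -0.05 for Uqcrb, with a median of -0.29, and none had an unadjusted edgeR p under 0.05. The Rieske iron-sulfur protein gene Uqcrfs1 had 105.1, 141.4 and 118.8 CPM in the GSK3326595 libraries, against 168.4, 166.0 and 139.1 CPM in the vehicle libraries. GSK3326595 replicate 2 and vehicle replicate 3 crossed (-0.37 ± 0.18, edgeR adjusted p = 0.575). Of the core protein genes, Uqcrc2 had 272.1, 309.9 and 278.8 CPM in the GSK3326595 libraries, against 378.8, 343.0 and 319.0 CPM in the vehicle libraries, and was the complex III gene whose groups lay apart (-0.27 ± 0.16, edgeR adjusted p = 0.647). Uqcrc1 had 228.6, 307.4 and 239.5 CPM in the GSK3326595 libraries, against 342.9, 320.0 and 297.4 CPM in the vehicle libraries, with overlap (-0.31 ± 0.18, edgeR adjusted p = 0.65).

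Cycs, which encodes somatic cytochrome c, the mobile carrier between complexes III and IV that also triggers apoptosis when released, was the single gene with a log2 difference above 0. It had 95.3, 262.5 and 209.3 CPM in the GSK3326595 libraries, against 212.0, 183.9 and 160.6 CPM in the vehicle libraries. The treated libraries included both the highest and the lowest of the 6, and the means were 189 ± 85.4 CPM in GSK3326595 tumors and 185.5 ± 25.8 CPM in vehicle tumors (log2 difference 0.03 ± 0.36, edgeR adjusted p = 0.99). The sign was not stable: without GSK3326595 replicate 2 the value was -0.22, and without GSK3326595 replicate 1 it was 0.35. Cycs has 4 near-identical copies in the table, which together held counts equal to 2.60% of those of Cycs.

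Complex IV, cytochrome c oxidase, hands the electrons to oxygen. Its nuclear subunits surround a core encoded by mitochondrial DNA, and all 11 of their genes were lower in GSK3326595 tumors, by a median log2 difference of -0.41 and a range from -0.53 for Cox8a to -0.25 for Cox7c. The groups lay apart in 7 of the 11, against 7.66% of all genes with this direction. Of the 11, 5 had an unadjusted edgeR p under 0.05, against 3.81% of all genes lower. Cox8a, for a small transmembrane subunit, had 126.3, 166.5 and 150.004 CPM in the GSK3326595 libraries, against 232.0, 228.6 and 180.2 CPM in the vehicle libraries. Its level in GSK3326595 tumors was 69.1% of that in vehicle tumors (log2 difference -0.53 ± 0.19, edgeR adjusted p = 0.522). Cox5b, for a zinc-binding subunit on the matrix side, had 97.3, 138.8 and 113.3 CPM in the GSK3326595 libraries, against 184.2, 166.1 and 149.0 CPM in the vehicle libraries. The 3 treated libraries again lay below all 3 vehicle libraries (-0.51 ± 0.19, edgeR adjusted p = 0.522).

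Cox7b, which encodes a further small transmembrane subunit, had 151.9, 179.3 and 143.1 CPM in the GSK3326595 libraries, against 234.0, 228.4 and 189.2 CPM in the vehicle libraries (-0.46 ± 0.18, edgeR adjusted p = 0.524). Cox7a2, the isoform that liver uses in place of the muscle form Cox7a1, had 85.5, 106.4 and 92.8 CPM in the GSK3326595 libraries, against 130.3, 133.1 and 115.2 CPM in the vehicle libraries (-0.41 ± 0.16, edgeR adjusted p = 0.524). In both genes the groups lay apart and vehicle replicate 3 was the lowest control. Cox6a1, the liver-type isoform of its subunit, had 108.2, 139.6 and 95.5 CPM in the GSK3326595 libraries, against 170.1, 162.1 and 146.2 CPM in the vehicle libraries. GSK3326595 replicate 2 came closest to the vehicle range without entering it (-0.48 ± 0.19, edgeR adjusted p = 0.533). Ndufa4, whose groups overlapped, lay at -0.28 ± 0.18.

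Complex V held the gene with the largest difference. All 4 of its genes were lower in GSK3326595 tumors, by a median log2 difference of -0.34. The groups lay apart in all 4, against 7.66% of all genes with this direction. Atp5o, on the minus strand of chr16:91925214-91931687 (mm10), encodes the oligomycin sensitivity conferral protein, which ties the catalytic head to the peripheral stalk. It had 200.2, 212.7 and 190.1 CPM in the GSK3326595 libraries, against 343.0, 323.3 and 266.8 CPM in the vehicle libraries. All treated libraries, replicate 2 included, lay well below the lowest vehicle library. The mean in GSK3326595 tumors was 64.6% of the vehicle mean, a log2 difference of -0.63 ± 0.17 (edgeR adjusted p = 0.46; DESeq2 adjusted p = 0.0745). A processed pseudogene 97.0% identical to it held counts equal to 4.18% of those of Atp5o, and adding them left the log2 difference at -0.63. A second Atp5o entry and a pair of opposite-strand genes share exonic positions with it.

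The alpha and beta subunits of the catalytic head are encoded by Atp5a1 and Atp5b. Atp5b, of the beta subunit, had 1369, 1596 and 1385 CPM in the GSK3326595 libraries, against 1974, 1846 and 1750.2 CPM in the vehicle libraries (log2 difference -0.36 ± 0.18, edgeR adjusted p = 0.595). Atp5a1, of the alpha subunit, had 1135, 1426 and 1174 CPM in the GSK3326595 libraries, against 1699, 1525 and 1441 CPM in the vehicle libraries (-0.32 ± 0.19, edgeR adjusted p = 0.651). In each, GSK3326595 replicate 2 was the highest treated library and stayed below the lowest vehicle library. Atp5c1, for the gamma subunit of the central shaft, had 287.1, 306.5 and 307.7 CPM in the GSK3326595 libraries, against 405.5, 359.1 and 355.6 CPM in the vehicle libraries (-0.31 ± 0.16, edgeR adjusted p = 0.582).

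**Figure D3:**
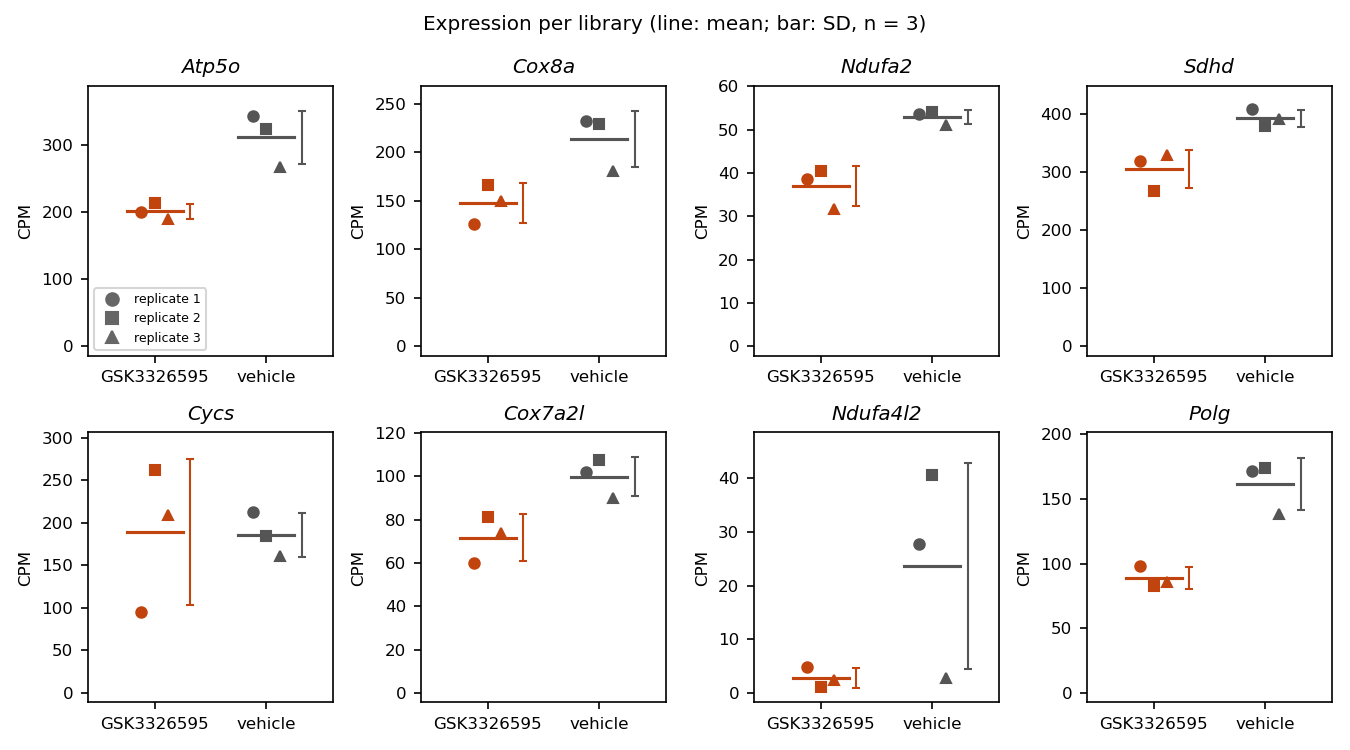
CPM in each library for 5 genes of the chain and ATP synthase (Atp5o, Cox8a, Ndufa2, Sdhd and Cycs) and for Cox7a2l, Ndufa4l2 and Polg, with GSK3326595 left of vehicle and a bar at each group mean. The groups lie apart for Atp5o, Cox8a, Ndufa2, Sdhd, Cox7a2l and Polg and overlap for Cycs and Ndufa4l2.

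Levels differed widely between the genes once counts were divided by transcript length. In TPM, transcript units scaled by length and computed on the longest coding transcript, Atp5b stood highest, at 1267 in GSK3326595 tumors and 1488 in vehicle tumors. It was followed by Atp5a1 (779 and 892), Cox4i1 (569 and 702), Cox6b1 (595 and 657), Cox8a (449.7 and 594) and Atp5o (402 and 568), each value for GSK3326595 tumors before that for vehicle tumors. The lowest in TPM was Ndufb2, at 14.6 TPM in GSK3326595 tumors and 17.8 TPM in vehicle tumors. That place depends on the transcript length used. Not divided by length, Ndufb2 averaged 50.8 CPM in vehicle tumors, above Ndufa1 (25.6 CPM), Ndufb3 (31.3 CPM) and Ndufc1 (32.8 CPM). The low end of this order also held Ndufc1, with a log2 difference of -0.60, and Ndufs4, with -0.19. The transcripts were short, with a median length of 992 bases against 3105 for all coding genes tested. Coding genes of up to 1000 bases had a median log2 difference of -0.03, and those over 4000 bases of 0.05. The 6518 genes whose mean CPM lay within the range of the 52 also had a median of -0.03, against -0.31 for the 52 genes. Every GSK3326595 library lay below every vehicle library for 115 of the 729 coding genes of up to 1000 bases and for 601 of those 6518 genes, where it did for 7.66% of all genes.

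Subunit genes that are not among the 52 had similar values. Of 10 further complex I genes, 9 had negative log2 differences, with a median of -0.22. Ndufb6, of the membrane arm, had 33.2, 44.7 and 29.3 CPM in the GSK3326595 libraries, against 63.0, 64.0 and 49.4 CPM in the vehicle libraries, a larger difference than any of the 52 (-0.72 ± 0.22, edgeR adjusted p = 0.495). Ndufv3, a subunit at the flavin end, lay at -0.34 ± 0.14, also with groups apart. The 3 further complex III genes had a median of -0.42, with Uqcrh, the hinge protein, at -0.48 ± 0.21 and Uqcr11 at -0.42 ± 0.19. Of 13 further complex V genes, 11 had negative values, with a median of -0.34. Against 3.81% of all genes, 3 of the 13 were lower and under the unadjusted threshold. Those were Atp5g2 and Atp5g3, which encode the c subunit of the rotor ring, at -0.38 ± 0.14 and -0.42 ± 0.17, and Atp5j2 of the membrane part at -0.37 ± 0.15. Atp5g3 was named after its value was seen.

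The 13 subunit genes of mitochondrial DNA had a median log2 difference of -0.14, with 11 below 0 and none under the unadjusted threshold. Their summed level ranged from 25385 to 30314 CPM in GSK3326595 libraries and from 25013 to 33085 CPM in vehicle libraries, so the groups overlapped. mt-Nd3, of complex I, lay at -0.32 ± 0.26, and mt-Co2, of complex IV, at -0.22 ± 0.23. The difference between nuclear and mitochondrial genes was not tested.

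Of 8 isoforms and paralogs of subunits, most but not all of them used mainly in other tissues or states, 4 had enough counts to be tested. Ndufa4l2, a paralog of Ndufa4 known as a hypoxia-induced gene, had 4.77, 1.15 and 2.34 CPM in the GSK3326595 libraries, against 27.7, 40.5 and 2.80 CPM in the vehicle libraries. Vehicle replicate 3 lay within the treated range, while the other vehicle libraries lay far above it (log2 difference -3.10 ± 0.98, edgeR adjusted p = 0.507, DESeq2 adjusted p = 0.0243). Cox7a1, the muscle-type form, had 1.55, 0.806 and 2.06 CPM in the GSK3326595 libraries, against 5.26, 6.22 and 2.36 CPM in the vehicle libraries (-1.65 ± 0.50, edgeR adjusted p = 0.499). The summed level of 6 muscle markers was 3.07 to 10.8 CPM in GSK3326595 libraries and 2.38 to 3.97 CPM in vehicle libraries, with Myh4 at 0 in all. Cox7a2l, a factor of respiratory supercomplexes named here after its value was seen, had 59.9, 81.4 and 73.7 CPM in the GSK3326595 libraries, against 102.2, 107.6 and 90.0 CPM in the vehicle libraries. Its groups lay apart (-0.48 ± 0.18, edgeR adjusted p = 0.522).

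Factors that assemble the complexes gave values nearer 0 than the subunits. Median log2 differences were -0.01 over 13 genes for complex I, -0.07 over 4 for complex II, 0.11 over 6 for complex III, -0.05 over 19 for complex IV and -0.0036 over 3 for complex V, and none of these genes had an unadjusted edgeR p under 0.05. Every GSK3326595 library lay below every vehicle library for 1 of the 13, 1 of the 4, 0 of the 6, 3 of the 19 and 0 of the 3 genes, against 7.66% of all genes, and above for 1, Uqcc3 of complex III assembly at 0.12, named after its value was seen. Examples of the lower ones were Ndufaf3 of complex I assembly at -0.49 ± 0.21, Sdhaf1 of complex II assembly at -0.41 ± 0.22, and the copper chaperone Cox17 at -0.33 ± 0.15. Bcs1l, which inserts the Rieske protein, lay at 0.39 ± 0.23. Whether assembly factors and subunits differ was not tested.

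Among 14 regulators of mitochondrial biogenesis and upkeep, 4 had negative log2 differences, and the median was 0.05. Polg, the polymerase that copies mitochondrial DNA, had 98.2, 82.4 and 85.5 CPM in the GSK3326595 libraries, against 171.8, 173.9 and 138.1 CPM in the vehicle libraries. The groups lay apart, and it passed in DESeq2 but not in edgeR (log2 difference -0.86 ± 0.17, edgeR adjusted p = 0.455; DESeq2 adjusted p = 0.00853). Its annotated span overlaps that of Fanci on the opposite strand. The factors named for respiratory gene promoters lay near 0, Nrf1 at 0.01 ± 0.21, Gabpa at 0.05 ± 0.19 and the mitochondrial DNA packaging factor Tfam at 0.08 ± 0.26, and the sign of each turned when single libraries were left out. Ppargc1a, the coactivator PGC-1alpha, had 3.51, 21.5 and 0.974 CPM in the GSK3326595 libraries, against 5.61, 11.5 and 5.73 CPM in the vehicle libraries. Its treated libraries spanned the whole range (0.19 ± 0.998). Ppargc1b had 6.58, 23.1 and 9.02 CPM in the GSK3326595 libraries, against 31.2, 42.0 and 8.71 CPM in the vehicle libraries (-1.08 ± 0.68, edgeR adjusted p = 0.668). Esrra, an orphan receptor of the same program, lay at -0.51 ± 0.34 (edgeR adjusted p = 0.686), and GSK3326595 replicate 2 was its highest treated library too.

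The citric acid cycle feeds the chain, and 13 of its 14 genes had negative log2 differences, with a median of -0.25 and none under the unadjusted edgeR threshold. The isocitrate dehydrogenase genes Idh2 and Idh3g lay at -0.50 ± 0.22 and -0.33 ± 0.15. Genes of the outer membrane and of protein import had a median of -0.03 over 12 genes, 8 of them below 0.

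**Figure D4:**
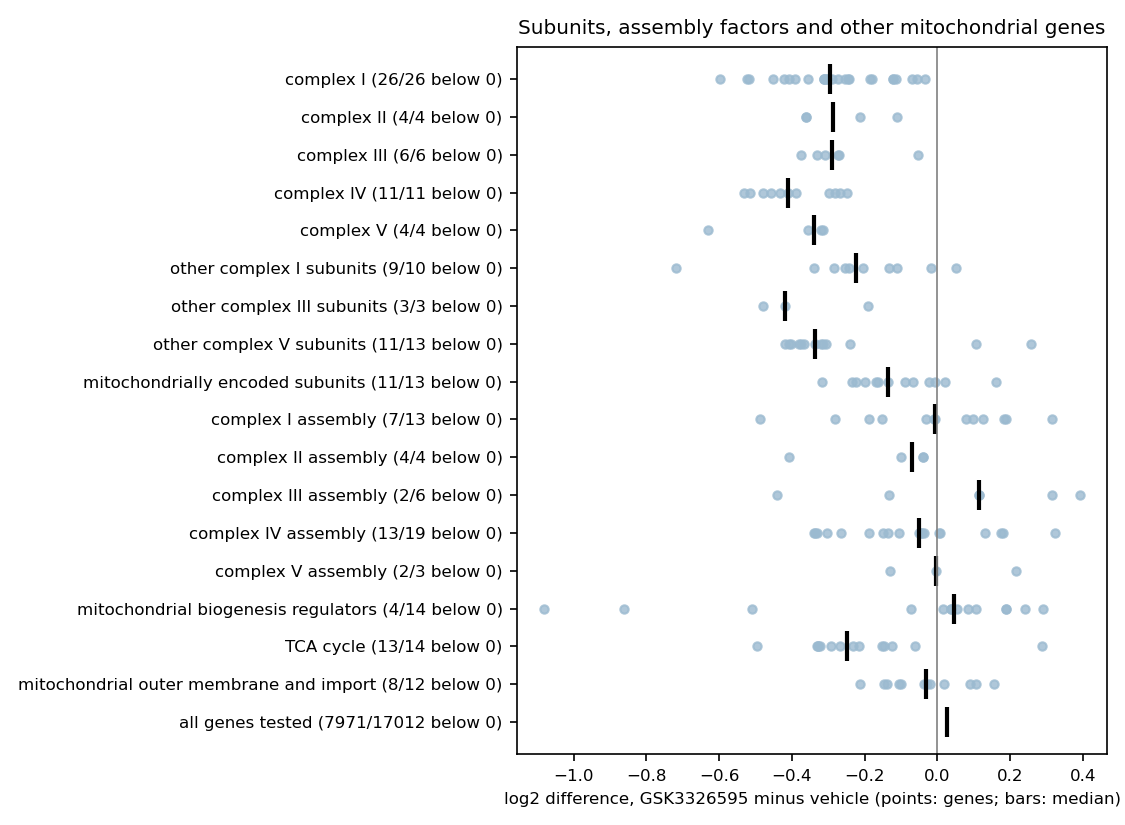
Log2 difference, GSK3326595 minus vehicle, of each tested gene in the complexes and in the related gene lists, with a line at each list's median. Cycs and the isoforms are not drawn. Medians of the subunit lists lie between -0.42 and -0.22, apart from the mitochondrially encoded subunits at -0.14, while the assembly lists lie between -0.07 and 0.11.

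Markers of other cells were also compared, and edgeR called none of them at the adjusted threshold. DESeq2 called 6 T cell markers, 1 B and plasma cell marker and 1 stellate cell and fibroblast marker higher, against 1.09% of all genes. At an unadjusted edgeR p under 0.05, 7 T cell, 3 B and plasma cell and 3 stellate cell and fibroblast markers were higher, against 5.45% of all genes. The hepatocyte marker Ass1 (-1.12 ± 0.38) and the erythroid marker Hbb-bt (-0.99 ± 0.40) were lower, against 3.81% of all genes. No macrophage, endothelial or cholangiocyte marker passed in either direction. The summed level of 8 stellate cell and fibroblast markers was 675.5 to 867 CPM in GSK3326595 libraries and 155 to 566 CPM in vehicle libraries, with 8 of 8 higher in GSK3326595. Of 10 T cell markers, 7 passed the filter and all 7 were higher, with sums of 14.5 to 31.1 CPM in GSK3326595 libraries and 4.39 to 7.21 CPM in vehicle libraries, where Cd3d and Cd8b1 were each at 0 in 1 library. All 5 B and plasma cell markers that passed were higher, with sums of 4.15 to 15.7 CPM in GSK3326595 libraries and 2.48 to 3.76 CPM in vehicle libraries. Some of these T and B cell markers passed the filter only through the GSK3326595 libraries. Cd6, for example, had 0.541 to 1.36 CPM there and 0.0597 to 0.159 CPM in vehicle libraries. For such genes the filter in part fixed the direction, so the counts of passed and higher markers are not evidence of a difference. Sums overlapped for macrophages, from 259.6 to 930.3 CPM in GSK3326595 libraries and from 267 to 440 CPM in vehicle libraries. They also overlapped for endothelium (101 to 206 and 84.7 to 148 CPM), cholangiocytes (13.1 to 63.3 and 11.1 to 26.02 CPM) and erythroid cells (215 to 365 and 209 to 496 CPM), with GSK3326595 libraries given before vehicle libraries. The 10 hepatocyte markers summed to 27290, 31088 and 9871 CPM in the GSK3326595 libraries, against 31760, 36279 and 17806 CPM in the vehicle libraries. Their mean sum in GSK3326595 tumors was 79.5% of that in vehicle tumors. Of the 10, 6 had negative log2 differences, with a median of -0.08 and a range from -1.59 for Cps1 to 2.83 for Tat. GSK3326595 replicate 3 and vehicle replicate 3 were the lowest of their groups in hepatocyte markers. The part of these cell types in the lower level of the 52 genes was not tested.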

How the data were processed

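Total RNA of liver tumors was sequenced from stranded libraries, per the labels' protocols. The authors deposited expected counts per gene (estimated reads, not scaled to library size), and 12.3% of values were not whole (tolerance 0). Per the submitters' processing notes, cutadapt, STAR, Picard and RSEM were used with the build mm10, and versions are not stated. The sources used here do not name the annotation; 47224 of 47643 gene IDs matched GENCODE M21 without their version suffix, 39106 with it. The table has 0 columns that were not used.

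Expected counts were rounded to whole numbers, and library totals ran from 25814339 to 33621083. Genes passing filterByExpr (minimum count 10) numbered 17012. They were scaled by TMM and compared, GSK3326595 minus vehicle, by edgeR 4.0.16 (R 4.3.3), using its two-sided quasi-likelihood test and a threshold of 0.05 after Benjamini-Hochberg adjustment over all of them. The SE is the absolute log2 difference over the square root of F. TMM factors also scaled the CPM values, to which a prior count of 2 was added for logs. TPM divided counts by the longest coding transcript, or by the union of exons where there was none, and was not TMM-scaled, so its ratios differ from those of CPM. Alternatives were limma-voom (limma 3.58.1), DESeq2 1.42.0, other scaling, other filters, mitochondrially encoded genes left out, copies' counts added, a replicate block, and each library left out in turn. The edgeR, DESeq2 and limma fits were tested on simulated counts.

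Near-identical copies were found with blastn 2.17.0 (at least 95% identity over 80% of the copy and 150 bases): 10 of the 52 genes have 18 copies in the table. Promoter windows are from RefSeq (GRCm38.p6), matched by symbol, 1 per gene. The 52 genes, the gene lists and the rules were chosen with earlier results of these data known, and the length, expression-range and motif descriptions after seeing values. Named were all genes of complexes II and V and Cycs, the 6, 5 and 3 of smallest p in complexes I, IV and III, the 2 of smallest p in other lists, and 5 regulators.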

Additional observations from a re-analysis of the deposited data

How the results depend on the processing

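Over 15 alternatives, 45 of the 52 genes had a negative log2 difference in each; the exceptions were Ndufa3, Ndufa5, Ndufa8, Ndufb3, Ndufs6, Uqcrb and Cycs. None of the 52 was called in any, and the smallest adjusted p was 0.0745, for Atp5o under DESeq2. DESeq2 called 100 genes lower and 186 higher where edgeR and limma-voom called 0 and 0; at an unadjusted edgeR p under 0.05, 648 were lower and 927 higher. Of the 52 genes, the 10 under that threshold became 3 with no scaling beyond total counts, where 2.53% of all genes were lower. They became 5 with no filter on low counts (against 2.58% of all genes) and 6 with at least 1 CPM in 3 libraries (against 3.15%). Without scaling, the median gene lay at 0.12 and the median of the 52 at -0.22.

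Leaving out each library in turn gave 1 to 18 of the 52 under the unadjusted threshold, where 1.37% to 5.49% of all genes were lower. It gave 19 to 44 with groups apart, for which no share over all genes was counted. Between 46 and 52 lay below 0, and the median of the 52 ran from -0.38 to -0.24. By complex, medians ran from -0.37 to -0.22 (I), -0.34 to -0.10 (II), -0.42 to -0.20 (III), -0.48 to -0.34 (IV) and -0.38 to -0.28 (V). The value of Cycs ran from -0.22 to 0.35. The sign also turned for Ppargc1a (-1.72 to 0.73), Nrf1 (-0.18 to 0.15), Gabpa (-0.074 to 0.20), Tfam (-0.21 to 0.26), Sdhaf3 (-0.39 to 0.090), Timm23 (-0.42 to 0.0038), Vdac2 (-0.30 to 0.014), Atpaf1 (-0.31 to 0.031), Mylpf (-0.47 to 0.10) and Hba-a1 (-0.48 to 0.16). Under limma-voom, Cycs lay at -0.086 and Ppargc1a at -0.72, and the log2 difference of Nrf1 was -0.0127. The cause was not tested.

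With the replicate block, 11 of the 52 genes were under the unadjusted threshold, against 4.58% of all genes lower, and 0 were called. In that fit Cycs lay at -0.074, Ppargc1a lay at -0.72, and the log2 difference of Nrf1 was -0.00807. Deviations of same-numbered libraries correlated at -0.07, 0.07 and 0.32, and GSK3326595 replicate 1 correlated with vehicle replicate 2 at 0.32 as well. With so few libraries these values cannot decide whether same-numbered samples were paired, and the labels name no pairing. Depth gave each of the 52 genes at least 470 counts per library.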

Other observations

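All 75 tested genes of cytosolic ribosomal proteins had negative log2 differences, with a median of -0.34, close to the -0.31 of the 52 oxidative phosphorylation genes. Of them, 23 had an unadjusted edgeR p under 0.05, against 3.81% of all genes tested, and 52 had every GSK3326595 library below every vehicle library, against 7.66%; 0 passed edgeR's adjusted threshold and 1 was called lower by DESeq2. Mitochondrial ribosomal protein genes had a median of 0.05, and 28 of 77 were below 0; none had an unadjusted edgeR p under 0.05 and 3 had every GSK3326595 library below every vehicle library. These genes were looked at after the values of the 52 were seen, many have pseudogene copies, and no test of a difference between the groups of genes was made.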
